A study of Rattus norvegicus with 6 samples.

Results

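The ligands of the EGF family described here are epiregulin (Ereg), amphiregulin (Areg), EGF (Egf), heparin-binding EGF-like growth factor (Hbegf), transforming growth factor alpha (Tgfa), betacellulin (Btc) and neuregulin 1 (Nrg1). The receptors Egfr, Erbb2 and Erbb3 are described with them. These genes were found by gene symbol in the annotation of the array rows, and all 10 were present among the 14506 genes tested. Each had a single row, so that the level used to choose between rows of a gene was not needed. Ereg was selected on its measured difference between the groups, which is therefore given as a description, and the others were added as its family and receptors. The tissue was ileum, where the small intestine ends, from 6 Zucker fa/fa rats. Animals of this strain lack a working leptin receptor and become obese, and both groups had that genotype. All rats were 20 weeks old at surgery and were killed 14 days later. In 3 rats a duodenum-jejunum bypass (DJB) sent food past the duodenum and upper jejunum, while bile and pancreatic juice rejoined it further down. The other 3 rats had a sham operation in which the cut bowel was joined again in its normal course. No rats without surgery and no lean rats were measured, and each array held the RNA of 1 rat, taken from the whole tissue. The values are log2 expression levels, so that a difference of 1 is a doubling, and the arrays are named sham 1 to 3 and DJB 1 to 3 after the numbers in the labels.

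The EGF family ligands are made as membrane proteins, and proteases at the cell surface release the part that binds the receptor. Epiregulin, amphiregulin, EGF, transforming growth factor alpha, betacellulin and heparin-binding EGF bind EGFR, while neuregulin 1 binds ErbB3 and ErbB4, and ErbB2 has no known ligand of its own and serves as a partner of the others. In the gut these signals act through the ERK and PI3K cascades on growth and repair of the epithelium, and epiregulin and amphiregulin are known to be induced after injury. The array medians lay between 6.08 and 6.19, and the small number of arrays limits the precision. The markers fixed for epithelium (6 of 6 measured) averaged 12.01 to 12.13 on every array, and those fixed for ileum (5 of 5) averaged 10.80 or more on every array, so both were present. Markers of exocrine pancreas (6 of 6) averaged 4.95 to 5.20, under 6.11, the median of all rows.

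In the rat genome (assembly GRCr8, RefSeq), Btc, Areg, Ereg and the further ligand gene Epgn follow one another on chromosome 14 with no other named protein-coding gene between them. Promoter sequences in RefSeq were found for 7 of the 10 genes. There was none for Ereg, Nrg1 and Erbb3, so their promoters were not searched. The sequences of Areg and Btc are shown because these are the family's measured neighbours of Ereg. Each runs from 250 bases before to 50 bases after the annotated start, on the strand of the gene (Areg at chr14:17265592-17265891, minus strand, and Btc at chr14:16992418-16992717, plus strand). Capitals mark matches to the cAMP response element TGACGTCA and to the TATA box TATAAA.
Areg: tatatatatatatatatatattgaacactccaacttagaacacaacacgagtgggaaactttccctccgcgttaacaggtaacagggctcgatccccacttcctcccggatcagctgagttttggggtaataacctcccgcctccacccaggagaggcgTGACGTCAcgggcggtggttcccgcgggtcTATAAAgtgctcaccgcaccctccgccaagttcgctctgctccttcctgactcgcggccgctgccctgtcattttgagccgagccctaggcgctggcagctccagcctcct
Btc: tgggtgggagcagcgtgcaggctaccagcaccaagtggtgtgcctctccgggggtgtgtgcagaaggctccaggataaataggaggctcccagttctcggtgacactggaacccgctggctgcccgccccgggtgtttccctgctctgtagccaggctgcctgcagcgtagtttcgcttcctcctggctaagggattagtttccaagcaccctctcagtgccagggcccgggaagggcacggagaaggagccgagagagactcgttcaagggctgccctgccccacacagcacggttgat
The Areg window held TGACGTCA 91 bases and TATAAA 61 bases before the start, and the Btc window held neither. Searched on both strands, TGACGTCA was present in 1.91% of 27457 promoters of the same length and TATAAA in 14.3%, and neither was found in the other 6 matched genes of the family. The AP-1 motif TGANTCA, present in 7.33% of promoters, was found in none of the 7. A match describes letters only, and the arrays did not measure binding.

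Ereg was the ligand with the largest difference, and it heads the set because that difference was already known. Its levels were 6.31, 6.86 and 6.80 in sham 1 to 3 and 8.14, 8.14 and 7.73 in DJB 1 to 3. Each DJB value lay above each sham value. The sham mean was 6.66 ± 0.30 and the DJB mean 8.0 ± 0.24 (SD, n = 3 each). The difference was 1.34 ± 0.17 (SE), or 2.54-fold. Only 13 of all genes tested had a larger positive difference. Leaving out 1 array at a time gave differences between 1.17 and 1.48, and its call in the fit across all genes ended without DJB 2 (difference 1.28, adjusted p = 0.0610 by limma). Whole tissue was measured, so more cells that make a transcript and more transcript per cell cannot be told apart.

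Areg, the neighbour of Ereg and a ligand of the same receptor, had levels of 5.90, 6.22 and 5.87 in sham and 6.69, 6.68 and 6.30 after DJB. The groups did not overlap, as was the case for 21.1% of all genes tested (14.5% with DJB above sham and 6.56% with DJB below), but the gap between sham 2 and DJB 3 was narrow. The difference of 0.56 ± 0.14 (SE), or 1.48-fold, did not pass the adjusted threshold of 0.05 over all genes (limma adjusted p = 0.134), and its unadjusted 95% interval ran from 0.24 to 0.88. In all, 127 genes had a larger positive difference than Areg. In both ligands DJB 1 and DJB 2 lay nearly level and DJB 3 was the lowest DJB array, as it was in 43.5% of all genes tested. Both ligands were highest on sham 2 within the sham group. The sham mean of Areg, 5.99, lay under 6.11, the median of all rows.

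**Figure D1:**
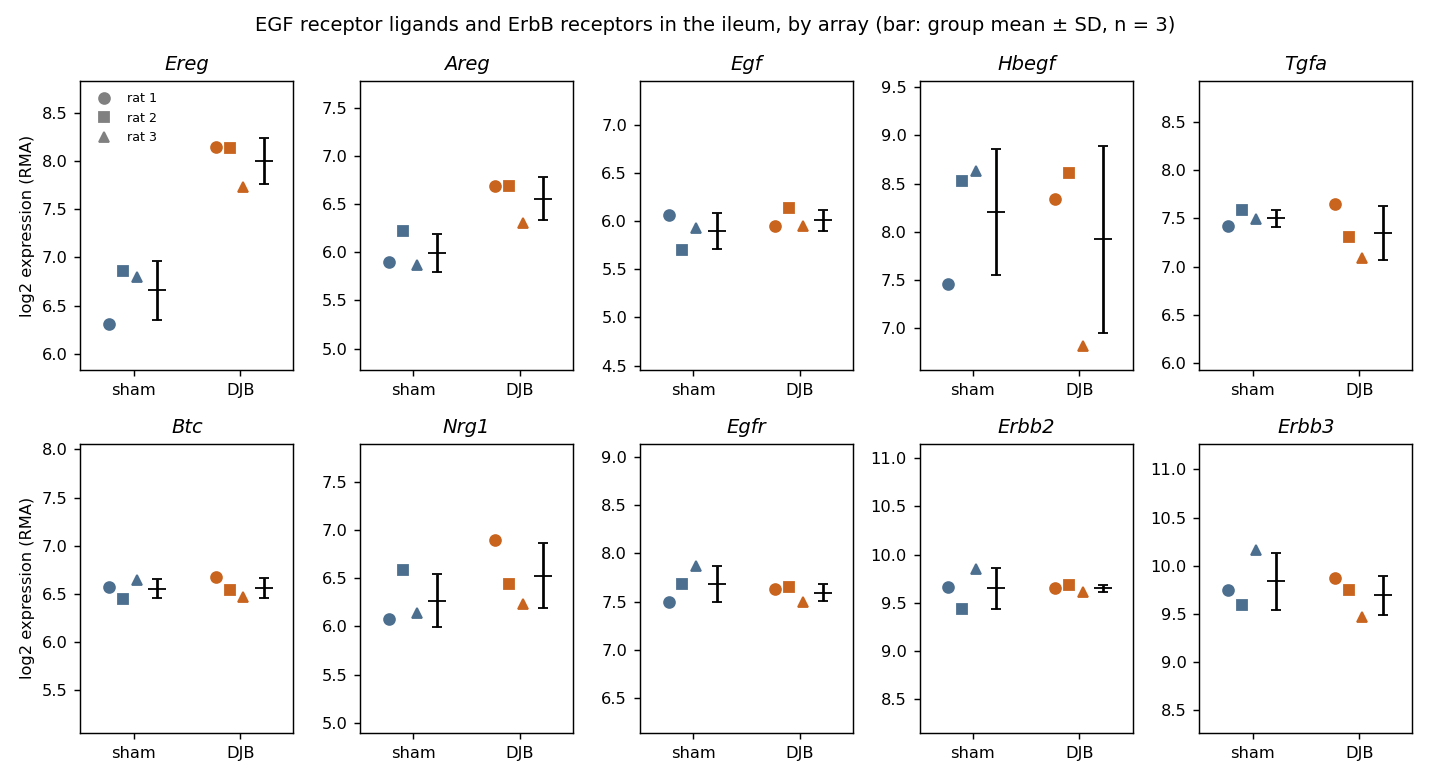
Log2 expression of the 7 ligand and 3 receptor genes on each array, sham in blue and DJB in orange, with the shape giving the rat's number within its group and the bar the group mean ± SD (n = 3). Each panel spans the same range of 3 log2 units. Ereg and Areg are the genes whose groups do not overlap, and Hbegf has the widest spread, with DJB 3 at 6.81 and sham 3 at 8.63.

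Hbegf, which also binds EGFR and heparan sulfate, varied more between rats than between groups. Its levels were 7.46, 8.53 and 8.63 in sham and 8.34, 8.61 and 6.81 after DJB, so that sham 1 and DJB 3 lay low and the other 4 arrays lay close together. The group difference was -0.29 ± 0.46 (SE; adjusted p = 0.820), and it was 0.27 without DJB 3. Its spread within groups (SD 0.83) was larger than that of 99.9% of genes tested, for which the median was 0.14.

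Tgfa, a ligand made by the intestinal epithelium itself, lay at 7.42, 7.59 and 7.50 in sham and at 7.65, 7.30 and 7.09 after DJB. The sham arrays lay within 0.17 of each other, while the DJB arrays spanned 0.56 around them. The difference was -0.15 ± 0.14 (adjusted p = 0.674). Egf, known in the gut from the glands of the duodenum and from saliva, lay at 6.06, 5.70 and 5.93 in sham and 5.94, 6.13 and 5.94 after DJB. Its mean over all arrays, 5.95, was the only one of the 10 under the median of all rows, and its difference was 0.11 ± 0.12 (adjusted p = 0.734). Btc, next to Areg on the chromosome, lay at 6.57, 6.45 and 6.64 in sham and 6.68, 6.55 and 6.47 after DJB. The groups overlapped, with a difference of 0.0083 ± 0.10 (adjusted p = 0.980) and an interval of -0.22 to 0.24 that leaves out a difference of the size seen for Areg.

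Nrg1, a ligand of ErbB3 and ErbB4, was at 6.07, 6.58 and 6.14 in sham and 6.89, 6.44 and 6.23 after DJB. DJB 1 was the highest array and sham 2 lay above the other DJB arrays. The difference of 0.26 ± 0.19 did not pass (adjusted p = 0.576), and it was 0.073 without DJB 1.

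The receptors showed no difference that passed the test. Egfr, the receptor for most of these ligands, had levels of 7.49, 7.69 and 7.87 in sham and 7.63, 7.65 and 7.49 after DJB, and the DJB values lay inside or at the lower edge of the sham range. Its difference was -0.091 ± 0.12 (adjusted p = 0.769; interval -0.35 to 0.17). Erbb2, the partner receptor, lay at 9.67, 9.43 and 9.85 in sham and 9.66, 9.68 and 9.61 after DJB, a difference of 0.00022 ± 0.12 (adjusted p = 1.0; interval -0.27 to 0.27). The 3 DJB arrays fell within 0.070 of each other and inside the sham range. Erbb3, which binds neuregulin and signals with ErbB2, lay at 9.75, 9.60 and 10.17 in sham and 9.87, 9.74 and 9.47 after DJB. Its difference was -0.14 ± 0.16 (adjusted p = 0.741; interval -0.51 to 0.22), with sham 3 the highest array.

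Across the 9 genes other than Ereg, 5 were higher and 4 lower after DJB, where 61.7% of all genes tested were higher, and 0 passed the adjusted threshold by limma, while 1 (Areg) had an unadjusted p under 0.05. Btc and Erbb2 counted here as higher turned lower after repeated quantile normalisation or median centring. Of the whole set of genes, 0.772% passed that threshold (0.393% upward and 0.379% downward) and 14.3% had an unadjusted p under 0.05. The median difference was 0.00022 for these 9 and 0.050 for all genes. With Ereg, which was selected on its difference, the groups did not overlap in 2 of the 10 genes, near the 21.1% of all genes.

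**Figure D2:**
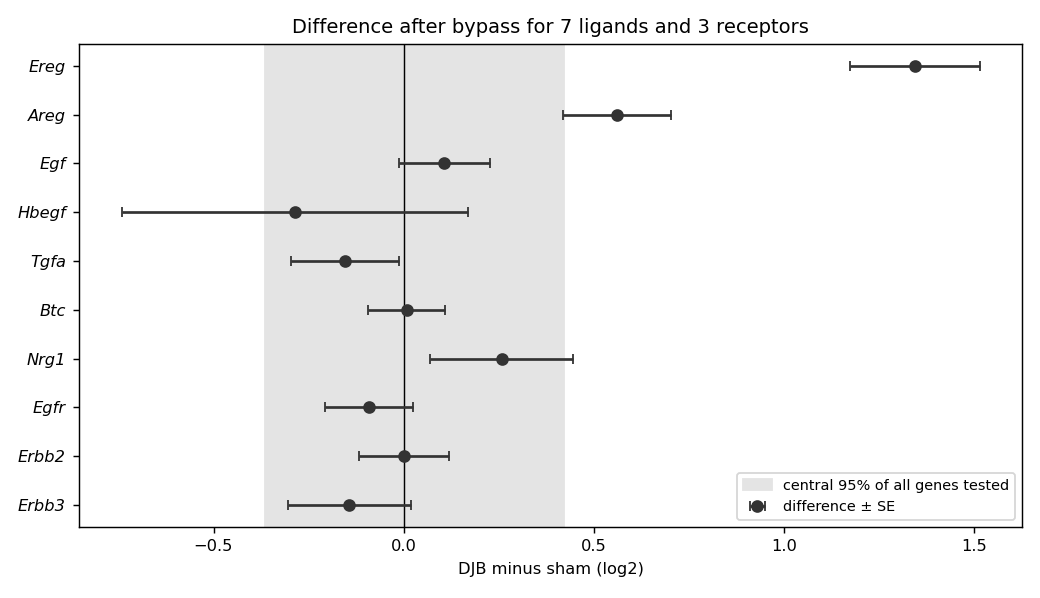
Difference DJB minus sham (log2) for the 7 ligands and 3 receptors, with points for the difference and bars for ± SE from the fit over all genes. The grey band spans the central 95% of differences over all genes tested, from -0.37 to 0.42. Ereg at 1.34 and Areg at 0.56 lie beyond the band, and Hbegf has the longest bar.

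The arrays that shaped each difference varied from gene to gene. Ereg and Areg were lowest without sham 1 (1.17) and without DJB 1 (0.50) and highest without DJB 3 (1.48 and 0.69). For Tgfa the difference ran from -0.30 without DJB 1 to -0.026 without DJB 3, and for Egf from 0.0071 without sham 2 to 0.19 without sham 1. Erbb3 went from -0.26 without sham 2 to 0.023 without sham 3. DJB 3 was the lowest DJB array in 9 of the 10 genes, all but Egf, as it was in 43.5% of all genes tested.

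**Figure D3:**
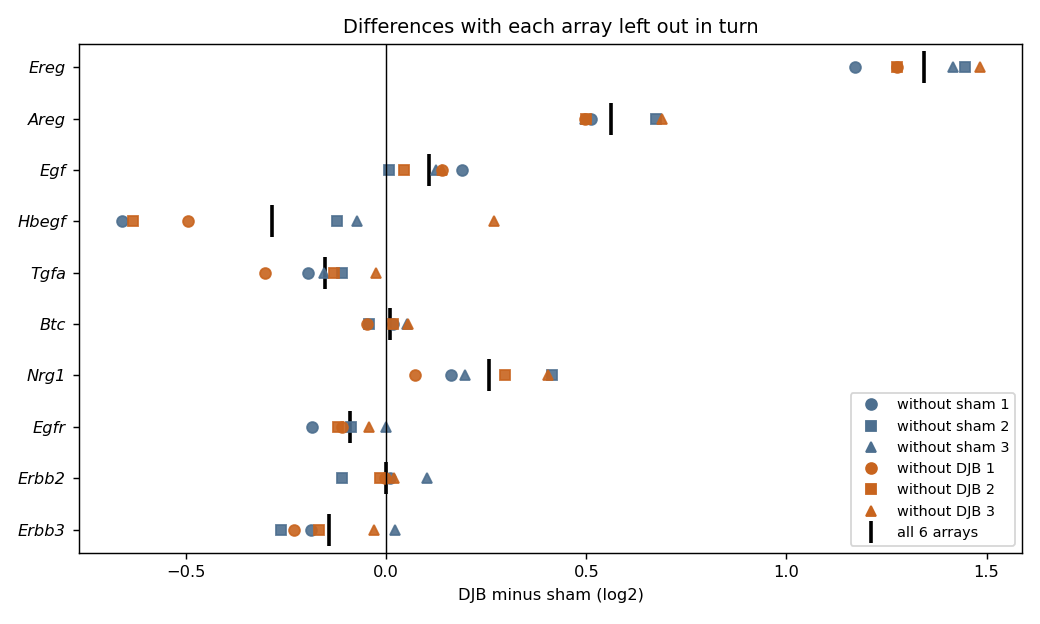
Difference DJB minus sham (log2) for each gene with all 6 arrays (black bar) and with each array left out (blue for sham, orange for DJB, shape for the rat's number). Ereg stays between 1.17 and 1.48 and Areg between 0.50 and 0.69, while Hbegf runs from -0.66 to 0.27 and crosses 0.

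Of the 77 further genes listed for the pathway, 64 were measured. A single one passed over all genes, Rhbdl2, a rhomboid protease of the plasma membrane known to release EGF from its membrane precursor. It stood at 9.54, 9.40 and 9.69 in sham and 10.23, 10.27 and 10.17 after DJB, with the DJB arrays close together and above all sham arrays. The rise was 0.68 ± 0.10 (SE), or 1.61-fold (limma adjusted p = 0.0241). Its size stayed between 0.61 and 0.76 with any array left out, but the adjusted p was then 0.0504 to 0.0956 without a sham array and 0.0549 to 0.105 without a DJB array, and the call ended each time. It ended also with all rows of the table in the fit (adjusted p = 0.0547).

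The other genes of ligand release did not pass. Of the 7 measured, Rhbdl2 included, 5 were higher and 2 lower (71.4% higher, against 61.7% of all genes). The groups did not overlap in 2 (28.6%, against 21.1% of all genes). The list median was 0.11 against 0.050 for all genes. Adam17, the main sheddase of amphiregulin and epiregulin, differed by 0.18 ± 0.09 (adjusted p = 0.434), and Timp3, its tissue inhibitor, by -0.22 ± 0.14 (adjusted p = 0.521). Of the further receptor and ligands, 2 of 5 were measured and both lay under the median of all rows, with Nrg2 at 0.071 ± 0.09 and the receptor Erbb4 at -0.059 ± 0.16 (adjusted p = 0.771 and 0.895).

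Downstream of the receptors, 0 of 13 adaptor and RAS-ERK genes passed by limma. An unadjusted p under 0.05 was found for 3 of them, and for 14.3% of all genes. Nras, a RAS GTPase, differed by 0.35 ± 0.09 (adjusted p = 0.154), and the docking proteins Gab1 and Gab2 by -0.34 ± 0.11 and -0.25 ± 0.11 (adjusted p = 0.213 and 0.338). The groups did not overlap in 6 of the 13 genes (46.2%, against 21.1% of all genes), 3 with DJB above and 3 with DJB below sham. Over all genes, 14.5% had DJB above and 6.56% DJB below sham. Among the 11 genes of the PI3K, PLC and STAT branches, 0 passed and 1 had an unadjusted p under 0.05, Stat3 at 0.28 ± 0.09 (adjusted p = 0.225). The PI3K regulatory subunit gene Pik3r1 differed by -0.22 ± 0.11 and the kinase gene Src by -0.31 ± 0.19 (adjusted p = 0.405 and 0.490). The groups did not overlap in 2 of these 11 genes (18.2%, against 21.1% of all genes), 1 with DJB above and 1 with DJB below sham. The medians were -0.0061 for the adaptor and RAS-ERK list and -0.041 for the PI3K, PLC and STAT list.

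The next list joins feedback inhibitors with genes of receptor turnover, only some of which receptor signalling is known to induce. Of its 17 measured members, 12 were higher and 5 lower (70.6% higher, against 61.7% of all genes). By limma 0 passed the threshold and 1 had an unadjusted p under 0.05, and the median was 0.060. Dusp6, the phosphatase that acts on ERK, lay at 8.41, 9.36 and 9.04 in sham and 9.86, 9.68 and 9.00 after DJB, where sham 2 and sham 3 were above DJB 3. Its difference of 0.57 ± 0.27 did not pass (adjusted p = 0.376). Socs4, an adaptor for receptor turnover, differed by 0.32 ± 0.11 and the phosphatase gene Dusp4 by -0.15 ± 0.09 (adjusted p = 0.230 and 0.498). In these 2 of the 17 (11.8%) the groups did not overlap, against 21.1% of all genes. Genes that ERK induces were higher in 11 and lower in 3 of 14 (78.6% higher, against 61.7% of all genes), with 0 past the threshold, 2 at an unadjusted p under 0.05 and a median of 0.14. The transcription factor gene Etv4 differed by 0.37 ± 0.13, the early response gene Ier3 by 0.40 ± 0.15 and the cyclin D1 gene Ccnd1 by 0.28 ± 0.14 (adjusted p = 0.230, 0.273 and 0.404). In these 3 of the 14 (21.4%) the groups did not overlap, near the 21.1% of all genes.

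**Figure D4:**
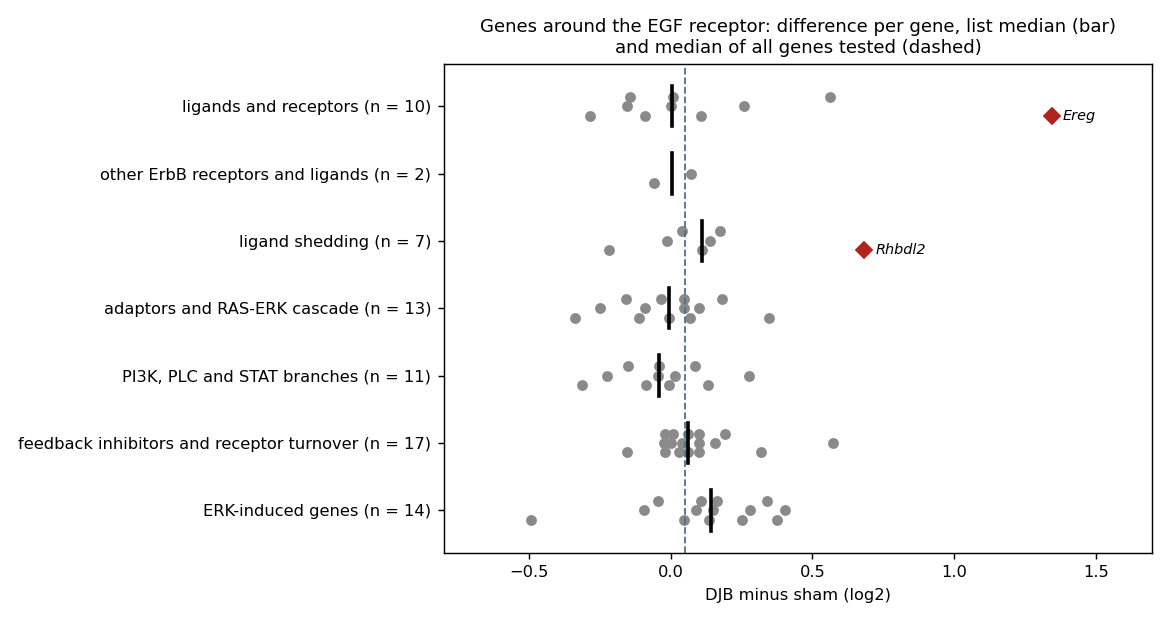
Difference DJB minus sham (log2) for each gene, by list, with grey points for genes that did not pass the adjusted threshold, red diamonds for those that did, black bars for the list medians and a dashed line at 0.050, the median of all genes tested. Ereg (1.34), whose difference chose it, and Rhbdl2 (0.68) are the genes past the threshold, and the list medians lie between -0.041 and 0.14.

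Hbegf is itself an early response gene, and the arrays on which it was low were also low for many genes that ERK induces. Sham 1 was the lowest sham array and DJB 3 the lowest DJB array in 10 of the 14 ERK-induced genes, as in 5 of the 10 ligand and receptor genes and in 16.2% of all genes tested. Fos stood at 8.41, 8.92 and 9.10 in sham and 8.52, 8.89 and 7.53 after DJB, and was lowest on DJB 3. Egr1, an early response transcription factor, stood at 6.98, 7.11 and 7.09 in sham and 7.79, 7.73 and 6.67 after DJB, with DJB 3 again under every sham array. The phosphatase gene Dusp1 stood at 8.59, 8.67 and 9.10 in sham and 9.12, 9.38 and 8.16 after DJB. The differences of Fos, Egr1 and Dusp1 were -0.49 ± 0.31, 0.34 ± 0.26 and 0.099 ± 0.28 (adjusted p = 0.514, 0.594 and 0.902). Without DJB 3, the difference of Egr1 was 0.70 and passed (adjusted p = 0.0413). That fit leaves out the array on which Egr1 was low, so its pass is a description and not a test. Under every other alternative Egr1 did not pass (limma adjusted p from 0.493 to 0.861). Early response genes also react to the handling of tissue, whose part in these values was not tested. Egr1, Fos and Dusp1 were named after their values were seen.

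**Figure D5:**
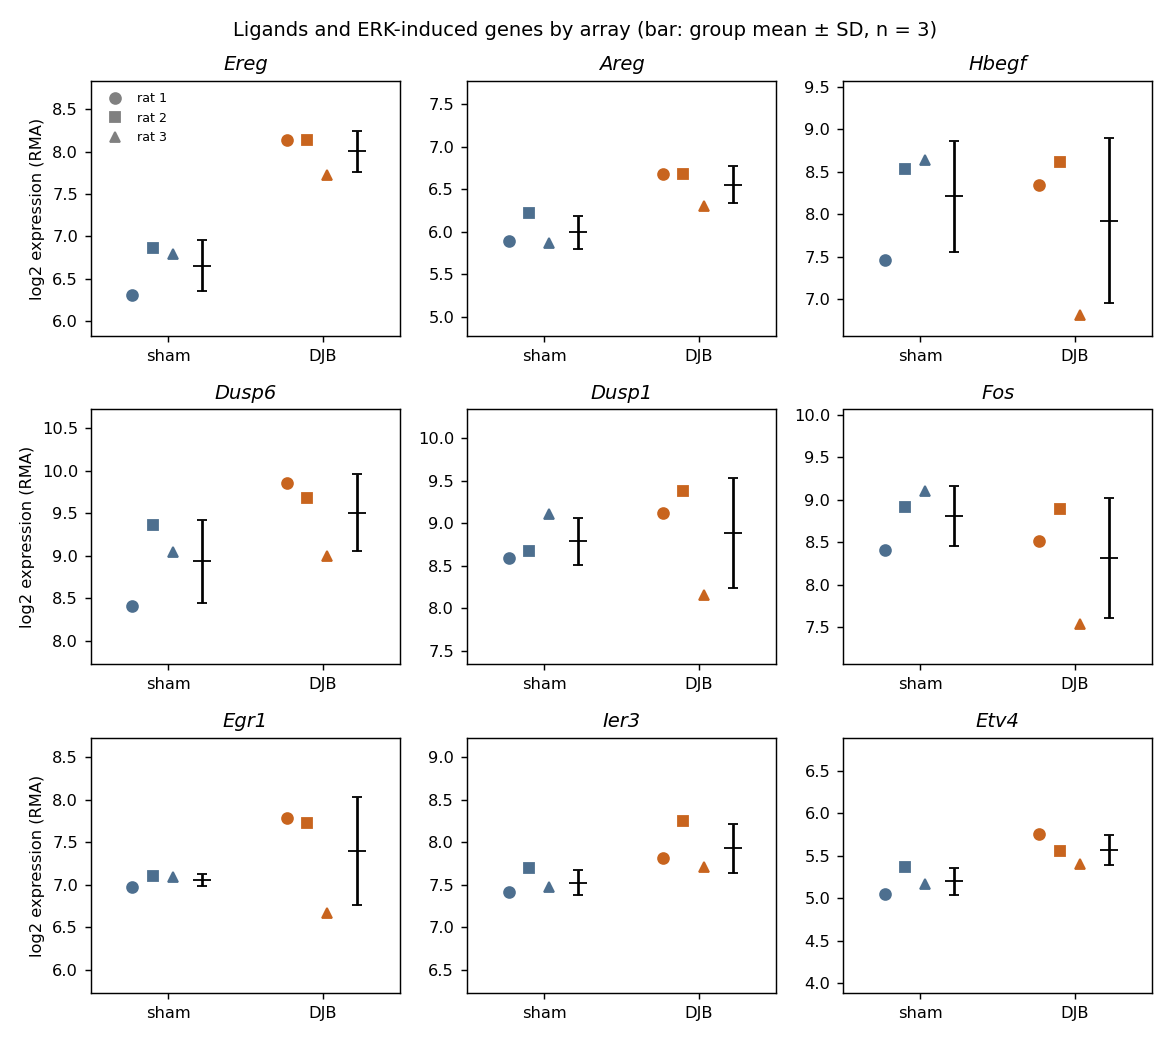
Log2 expression on each array for 3 ligands and 6 genes of ERK feedback and ERK response, chosen after their values were seen, sham in blue and DJB in orange, with the shape giving the rat's number and the bar the mean ± SD (n = 3). DJB 3 is the lowest DJB array in each panel, and in Hbegf, Dusp1, Fos and Egr1 it lies under every sham array.

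Neighbours of Ereg on chromosome 14 were compared over 5 named protein-coding genes to each side, a width set after values were seen. Epgn was not analysed here. Beside Areg, the other 8 measured had differences between -0.042 and 0.17, and 0 passed by limma or had an unadjusted p under 0.05. They include the neutrophil chemokine genes Cxcl1 (-0.015 ± 0.11), Cxcl2 (0.12 ± 0.15) and Cxcl3 (-0.042 ± 0.11), with adjusted p of 0.968, 0.753 and 0.893.

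Over the 6 arrays, the genes most like Ereg by Pearson correlation were Cpt2 (r = 0.999), G6pc3 (0.996), 1700012B07Rkl (0.994), Gid8 (0.994) and Tuba4a (0.994). Cpt2 encodes a mitochondrial enzyme of fatty acid oxidation and G6pc3 a glucose-6-phosphatase. The correlations are descriptions over 6 points that share the group difference for which Ereg was chosen. The differences of these 5 genes, from 0.27 for Gid8 to 0.54 for Cpt2, were smaller than that of Ereg, and none passed (limma adjusted p from 0.0641 to 0.228). Among the family, Areg was most like Ereg (r = 0.931, rank 233 of all genes), followed by Nrg1 (0.628), and the other 7 lay between -0.198 and 0.258.

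Cells beneath the epithelium, such as macrophages and fibroblasts, can also make epiregulin, and their markers are given beside it. For comparison with the counts below, 61.7% of all genes tested were higher after DJB and 14.3% had an unadjusted p under 0.05. Of the 7 macrophage markers measured, 6 were higher and 0 passed by limma (3 at an unadjusted p under 0.05), with list means of 7.92 to 8.01 in sham and 7.99 to 8.28 after DJB. DJB 3 had the highest macrophage mean and the lowest Ereg of the DJB arrays. Of the 6 fibroblast markers, 4 were higher and 0 passed (4 at an unadjusted p under 0.05), from -0.17 for Pdgfra to 0.71 for Col1a1. The fibroblast means were 9.29, 8.93 and 8.95 in sham and 9.65, 9.45 and 9.09 after DJB. Sham 1 was thus the highest sham array for fibroblast markers and the lowest for Ereg, while DJB 3 was the lowest DJB array for both. The 5 neutrophil markers were all higher by 0.057 to 0.43, 0 passed (2 at an unadjusted p under 0.05), and their means of 4.14 to 4.29 in sham and 4.30 to 4.55 after DJB lay under the median of all rows. The 4 crypt stem cell markers were all lower, from -0.63 for Lgr5 to -0.022 for Olfm4, and 0 passed (1 at an unadjusted p under 0.05). Smooth muscle means were 10.35 to 10.86 in sham and 10.68 to 10.95 after DJB, endothelium 7.01 to 7.05 and 6.74 to 7.27, neurons and glia 5.61 to 5.96 and 5.62 to 5.85, and mast cells 7.65 to 7.78 and 7.30 to 7.60. The 5 smooth muscle markers were all higher and the 4 mast cell markers measured all lower. By limma 0 of them passed (1 and 2 at an unadjusted p under 0.05). Endothelium and neurons and glia each had 1 marker higher and 3 lower, with 0 at an unadjusted p under 0.05. The lowest and highest differences were those of C1qb (-0.0065) and Cd163 (0.45) among macrophage markers, S100a9 and Cxcr2 (0.057 and 0.43) among neutrophil markers, and Myh11 (0.0052) and Cnn1 (0.36) among smooth muscle markers. They were those of Tek (-0.095) and Cdh5 (0.044) in endothelium, Uchl1 (-0.19) and S100b (0.15) in neurons and glia, Mcpt1 (-0.53) and Fcer1a (-0.082) in mast cells, Krt18 (-0.11) and Epcam (0.21) in epithelium, and Cpa1 (-0.052) and Ctrb1 (0.18) in exocrine pancreas, and none of these genes passed. The part of these cells in the Ereg difference was not tested.

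Markers of gut region were also compared, and only some of them passed the adjusted threshold. The 5 ileum markers were all higher, against 61.7% of all genes. Their list means were 10.80 to 11.14 in sham and 11.56 to 11.85 after DJB. By the adjusted threshold 2 rose, as did 0.393% of all genes. Slc10a2, the bile acid uptake transporter, rose by 1.73 ± 0.22 (limma adjusted p = 0.0106), more than Ereg differed, and this call ended with eBayes under a trend and robust estimation (adjusted p = 0.0511). The FXR gene Nr1h4, a nuclear receptor for bile acids, rose by 0.98 ± 0.15 (adjusted p = 0.0275), a call that ended without sham 1, sham 2 or sham 3 (adjusted p = 0.0931, 0.106 and 0.113), with all rows in the fit (0.0631) and with the replicate block (0.0749). The smallest ileum difference was that of the transcription factor gene Cdx2 (0.025 ± 0.10). In the duodenum and Brunner gland list (3 of 5 measured), Gata4, a transcription factor gene of the upper small intestine, stood at 7.83, 7.82 and 7.36 in sham and 6.95, 5.97 and 6.55 after DJB, with every DJB array under every sham array. Its difference of -1.18 ± 0.23 did not pass (adjusted p = 0.0643), though it passed with dim rows left out (adjusted p = 0.0339), with arrays centred on their median (0.0454) and without DJB 1 (0.0289). Tff2 (0.22 ± 0.13) and Muc6 (0.043 ± 0.10), made by Brunner glands, did not pass (adjusted p = 0.474 and 0.883). The part of gut region in the Ereg difference was not tested.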

How the data were processed

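Whole-transcript arrays (Affymetrix) measured ileum RNA of 3 sham and 3 DJB rats. The deposited table holds log2 expression values for 29214 rows, made by the authors with RMA per the submitters' processing notes (no version is given), and its columns were matched to the samples by name. RMA quantile normalises between arrays, which can hide a shift common to most genes. In the deposited values the array medians still ran from 6.08 to 6.19. The median difference of all genes was 0.050, and 0.013 after repeated quantile normalisation. Rows with exactly 1 gene symbol in the platform annotation (15310) were used, those with several (323) or none (13581) were left out, and for 527 genes with several rows the row of highest mean was taken, leaving 14506 genes. DJB minus sham was fitted over all of them with limma 3.58.1 in R 4.3.3 (lmFit, eBayes, no covariate, two-sided, Benjamini-Hochberg, threshold 0.05), after being tested on simulated data. Intervals are the fit's 95% intervals, unadjusted. The alternatives were a repeated quantile normalisation, median centring, dim rows left out, eBayes with trend and robust estimation, the mean of a gene's rows, all rows in the fit, the replicate number as a block, and each array left out. Named from the pathway lists were genes past the threshold and the 3 of lowest p in each list, and from marker lists the members of highest and lowest difference, with Nr1h4 and Muc6 added after their values were seen, besides the 5 genes most like Ereg over the arrays, leaving out bare accession and number names, and the neighbours of Ereg. The members and lists were chosen with earlier results of these data known. Names, gene order and promoters came from RefSeq (GRCr8). No genome build is given for the rows in the sources used here. Scan batches were not analysed here. Figures were drawn with matplotlib 3.10.9.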

Additional observations from a re-analysis of the deposited data

How the results depend on the processing

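The number of genes called over the whole table, 112, was 225 with dim rows left out (8838 genes tested), 313 with eBayes under an intensity trend and robust estimation, 50 with the replicate number as a block, and 33 to 108 with 1 array left out. Ereg was called under every alternative except without DJB 2, so that the number of ligand and receptor genes called was 0 to 1 with an array left out. Because Ereg was selected on its difference in these same arrays, its calls are a description and not a test. The 1 pathway gene called, Rhbdl2, was not called with all rows in the fit or with the replicate block (adjusted p = 0.107), which left 0, and the count was 0 to 1 with an array left out, the 1 being Egr1 without DJB 3. Areg kept its direction and did not pass under any of the 13 alternatives (limma adjusted p from 0.0659 to 0.337). The sign of differences near 0 turned for Btc and Erbb2 after repeated quantile normalisation (-0.017 and -0.039) and median centring (-0.022 and -0.030). With 1 array left out, the differences ran from -0.048 to 0.056 for Btc, -0.11 to 0.10 for Erbb2, -0.18 to 0.00064 for Egfr, -0.26 to 0.023 for Erbb3, -0.66 to 0.27 for Hbegf, -0.18 to 0.14 for Erbb4 and -0.15 to 0.46 for Dusp1. The cause of these changes was not tested. Egf has no value with dim rows left out. Over the genes tested, deviations from the group means correlated at 0.0053, -0.12 and -0.15 in samples sharing a replicate number. In pairs of unlike number the correlations ran from -0.057 to 0.17. The numbers were read as names of the rats, and whether they stand for a shared day or batch was not tested.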
